A study of Mus musculus with 6 samples.

Results

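The cytosolic ribosome's proteins are encoded by a family of genes named Rps for the small subunit and Rpl for the large one. Here the family was taken by symbol, as Rps or Rpl followed by a digit together with Rplp0, Rplp1, Rplp2 and Rpsa. S6 kinases, Rps19bp1 and symbols containing -ps were left out. This gave 88 of the 18437 genes in the table, of which 77 encode proteins of the canonical ribosome and 11 are copies or like genes. Among the copies, GENCODE M21 annotates Rps3a2, Rps3a3, Rpl6l and Rpl32l as processed pseudogenes and Rps4l as a transcribed processed pseudogene. All 88 passed the filter on low values, as did 16042 genes in all. RNA was sequenced from whole pancreatic islets of male mice aged 30 weeks, in 3 libraries from Sec16b+/+ animals (wild type) and 3 from Sec16b-/- animals (knockout). The gene that the genotypes name, Sec16b, acts at the sites where secretory cargo leaves the endoplasmic reticulum, and the comparison asked which islet transcripts differ between them. The labels name no strain, treatment or knockout method, and do not say whether a library came from 1 animal or from pooled ones, so p-values measure only the spread between these samples.

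Ribosomal proteins assemble on ribosomal RNA in the nucleolus, and the finished subunits translate every cellular mRNA. Many mRNAs of the family start with a C and an unbroken run of pyrimidines, the terminal oligopyrimidine (TOP) motif, through which mTOR signalling sets how strongly they are translated. In beta cells the same ribosomes make proinsulin at the endoplasmic reticulum, the compartment that Sec16b serves.

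The start of the gene is shown for 8 members, of which 6 had no overlap between genotypes with knockout above (Rps27, Rps27rt, Rps21, Rps28, Rpl37a and Rpl41), 1 had none with knockout below (Rpl7l1), and 1 followed the common pattern of the family closely (Rps18). Each line gives 30 bases of genomic sequence from the RefSeq table for GRCm38.p6, 15 before and 15 from the annotated start. Capitals mark the longest run of C and T. Where runs were equally long, as in Rps27rt and Rpl7l1, only the first is marked.
Rps27: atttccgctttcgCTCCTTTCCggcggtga
Rps27rt: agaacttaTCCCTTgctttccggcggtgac
Rps21: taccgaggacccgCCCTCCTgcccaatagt
Rps28: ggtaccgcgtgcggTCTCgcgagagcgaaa
Rpl37a: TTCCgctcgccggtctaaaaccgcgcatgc
Rpl41: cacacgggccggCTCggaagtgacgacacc
Rpl7l1: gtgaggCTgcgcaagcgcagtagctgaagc
Rps18: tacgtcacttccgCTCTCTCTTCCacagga
On the minus strand lie Rps27 (chr3:90213634-90213663), Rps27rt (chr9:114982725-114982754), Rps28 (chr17:33824548-33824577), Rpl41 (chr10:128549154-128549183), Rpl7l1 (chr17:46782642-46782671) and Rps18 (chr17:33955651-33955680). On the plus strand lie Rps21 (chr2:180257364-180257393, the first of its 2 listed starts) and Rpl37a (chr1:72711245-72711274). Rps27 has a run of 9 pyrimidines and Rps18 one of 11. The longest run is 7 bases in Rps21, 6 in Rps27rt, 4 in Rps28 and Rpl37a, 3 in Rpl41 and 2 in Rpl7l1.

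Of the canonical members, 57 had an entry in that table. A run of at least 8 pyrimidines within 15 bases of a start stood in 25 of these 57 (43.9%), in 14.9% of the 11712 tested genes with an entry and in 13.2% of mitochondrial ribosomal protein genes. The letters CCGGAAG, the core bound by ETS-family factors, stood on either strand of the 300-base window in 42.1% of the canonical members, in 18.2% of tested genes and in 36.8% of mitochondrial ribosomal protein genes. The E-box CACGTG (10.5% against 11.2%) and the TATA-box letters TATAAA (10.5% against 9.32%) came at like shares in members and tested genes. These are matches of letters, searched on both strands apart from the pyrimidine run, and are no measure of binding.

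Library depth ran from 22071895 to 26806787 recovered reads. The deposited values are counts divided by a size factor for each library, and 1 read was worth between 0.879 and 1.23 units. Sec16b itself was 1655, 773 and 1786 in wild type 1, 2 and 3, against 553, 433 and 749.5 in knockout 1, 2 and 3. Its log2 fold change was −1.22 (SE 0.35), all knockout values lay below all wild type values, and limma's test over all genes did not call it (adjusted p = 0.993). Its transcript thus remained in every library labelled knockout, and knockout 3 was close to wild type 2. Hormone genes marked the tissue as islet in every library. Marker lists of other cells varied between libraries. The 14 acinar (digestive enzyme) markers, all in the table, took 4.64%, 0.953% and 2.82% of wild type counts and 14.0%, 6.33% and 0.626% of knockout counts.

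Most ribosomal protein transcripts were slightly more abundant in knockout islets on average, but the libraries of each genotype overlapped and no member passed the test. The knockout mean of log2 values was above the wild type mean in 83 of 88 members, where 49.4% of all tested genes were above. The median log2 fold change was 0.18 over the family, −0.003 over all tested genes and −0.05 over the 4800 genes with a mean of at least 1000. Limma called 0 members at an adjusted p under 0.05 and 0 genes in all, which is 0% of those tested, and the lowest adjusted p in the family was 0.993. At an unadjusted p under 0.05 it found 3 members higher (1.72% of all genes) and 0 lower (1.36% of all genes). EdgeR's quasi-likelihood test also called 0 genes and put 4 members higher (1.93% of all genes) and 0 lower (1.25%) at that unadjusted level. DESeq2 called 9 genes in all (0.0563%), of which 0 were members, and at the unadjusted level it also put 4 members higher (2.03% of all genes) and 0 lower (1.54%).

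The size of the difference rested on 2 libraries. Without knockout 1 the median was 0.02 and 54 members were higher, and without wild type 3 it was 0.06 with 64 higher. Without wild type 1 it was 0.32, and without knockout 3 it was 0.36. Scaling to the library total gave a median of 0.11 with 79 members higher, while 37.4% of all genes were then higher. With the acinar marker level as a covariate the median was 0.08 and 75 members were higher. In bulk islet RNA a change in the mix of cells and a change in RNA per cell cannot be told apart.

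**Figure D1:**
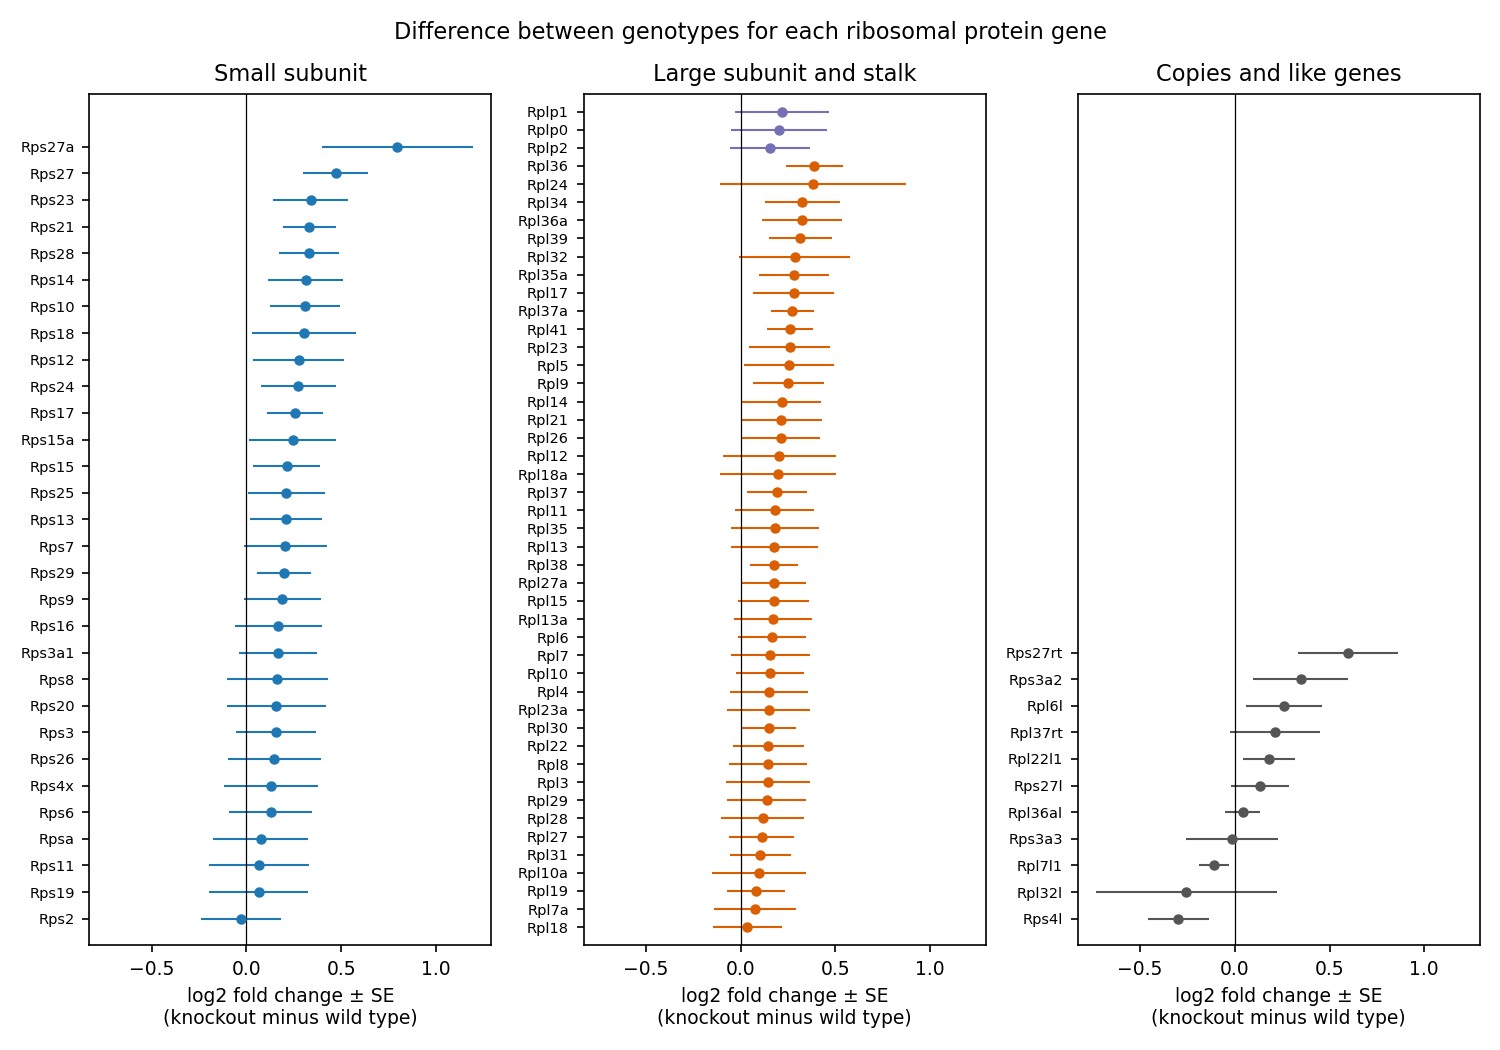
The log2 fold change of 87 of the genes, knockout minus wild type on the log2(value + 1) scale, is plotted as a point with its standard error from limma, in panels for the small subunit, the large subunit with the stalk, and copies. Points lie between −0.30 for Rps4l and 0.80 for Rps27a, and 82 of the 87 are right of 0.

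Libraries of the same genotype stood further apart than the genotypes did. The median deviation of its genes from their own mean, on the log2 scale, was 0.15, −0.07 and −0.36 in wild type 1, 2 and 3. It was 0.40, 0.12 and −0.23 in knockout 1, 2 and 3. Each genotype thus had a high, a middle and a low library, and the ranges of the groups overlapped. Knockout 1 held the highest of the 6 values in 80 of 88 members, against 20.5% of all tested genes. Wild type 3 held the lowest in 70 of 88, against 15.9% of all tested genes. In 33 of the members all 6 libraries stood in a single order, knockout 1, wild type 1, knockout 2, wild type 2, knockout 3 and wild type 3, a pattern chosen after the values were seen, which 0.729% of all tested genes share.

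The spread within a genotype was correspondingly wide. Its median was 0.30 (log2 SD) over the 88 genes, against 0.15 over genes with a mean of at least 1000 and 0.12 over the 77 mitochondrial ribosomal protein genes. The correlation of each member with the median of the others across the 6 libraries was at least 0.9 in 69 of 88 members. This is Pearson's r, given as a description, since the libraries share their depth and cell mix. The median r was 0.97, and 6 members had an r under 0.5. Those were Rps4l (−0.56), Rpl24 (−0.41), Rpl7l1 (−0.16), Rps27a (−0.03), Rps3a3 (0.25) and Rpl36al (0.28).

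**Figure D2:**
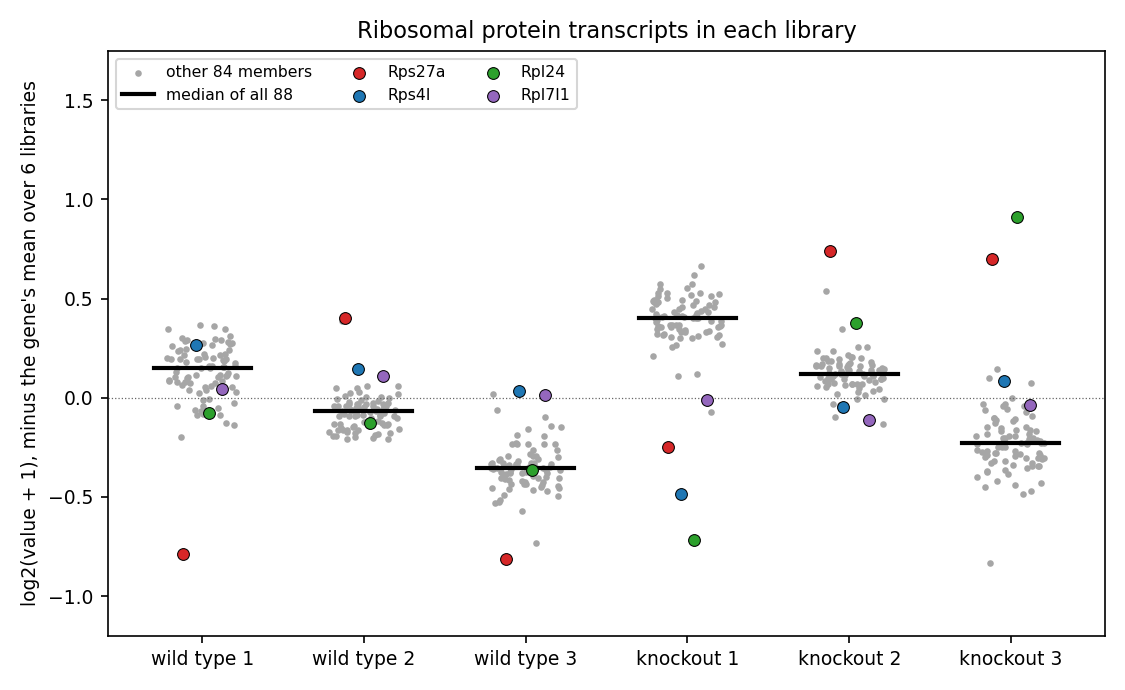
Each point is 1 ribosomal protein gene in 1 library, plotted as its log2(value + 1) minus its own mean over the 6 libraries, and the bar is the median of all 88. The cloud is highest in knockout 1 (median 0.40) and lowest in wild type 3 (median −0.36), and the 4 coloured genes Rps27a, Rps4l, Rpl24 and Rpl7l1 depart from it.

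As a share of all counts the family took 1.53%, 1.32% and 1.02% in wild type 1, 2 and 3, and 1.51%, 1.44% and 1.17% in knockout 1, 2 and 3. Counting error is negligible beside this spread, since the exact 95% Clopper-Pearson interval of the lowest share ran from 1.02% to 1.03%; such intervals cover counting error only. Wild type 1 and knockout 1 had nearly the same share, and wild type 3 and knockout 3 were low in their groups. The insulin genes Ins1 and Ins2 took 9.96%, 10.5% and 13.3% of wild type counts and 8.27%, 8.79% and 13.0% of knockout counts, so the libraries with the largest insulin share had the smallest ribosomal protein share in each genotype. Leaving insulin genes and acinar markers out of the total gave the family 1.79%, 1.49% and 1.22% in wild type, against 1.95%, 1.70% and 1.36% in knockout.

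Some markers of other cells moved with part of this pattern. Knockout 1, the library highest in ribosomal protein transcripts, had the largest acinar share (14.0%), but wild type 3, the lowest, had 2.82% and knockout 3 had 0.626%. The summed acinar markers ranged from 214057 to 1049914 in wild type and from 137626 to 3802816 in knockout. Of 8 lymphocyte markers 6 were in the table, averaging, on the log2 scale, 10.7, 4.03 and 4.80 in wild type 1, 2 and 3, against 10.6, 9.13 and 7.81 in knockout 1, 2 and 3. Their sum ranged from 237 to 21709.9 in wild type and from 7122 to 143805 in knockout. The 8 immediate early genes, which respond to handling and stimulation, summed to between 15812 and 20648 in wild type and between 22489 and 42248 in knockout. The 4 endothelial markers, averaged on the log2 scale, were 9.18, 9.12 and 8.96 in wild type 1, 2 and 3, against 9.94, 9.47 and 9.28 in knockout 1, 2 and 3. Here knockout 1 was highest and wild type 3 lowest, as in the family, and the groups did not overlap, while their summed counts did (2635 to 3674 in wild type, 3354 to 5067 in knockout). The sum of the 2 markers of pancreatic polypeptide cells, Ppy and Pyy, also did not overlap, at 14763 to 20244 in wild type and 21276 to 29700.0 in knockout. Averaged on the log2 scale, the 9 beta cell markers were 15.03, 15.17 and 15.33 in wild type 1, 2 and 3. They were 14.60, 14.82 and 15.34 in knockout 1, 2 and 3, the reverse of the family's order in each genotype. None of the alpha, delta, duct, macrophage and stellate lists followed the family's order in both genotypes. The part of these lists in the family's differences was not tested, beyond the acinar covariate given above.

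In the small subunit, which reads the mRNA, 30 of 31 genes were higher in knockout and the median log2 fold change was 0.21. Rps27, a zinc-binding protein of the subunit, had the lowest p of the family. Its values were 1156, 1117 and 872 in wild type 1, 2 and 3, against 1728, 1463 and 1189 in knockout 1, 2 and 3. All 3 knockout libraries were above all 3 wild type libraries, and knockout 3 was only a little above wild type 1. The log2 fold change was 0.47 (SE 0.17, unadjusted p = 0.0293, adjusted p = 0.993 by limma). The exact permutation test of this gene gave p = 0.1, the smallest that 3 against 3 can give.

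Complete separation with knockout above held for 7 members, where 3.85% of all genes showed it, and with knockout below for 1 member, where 5.22% did. Rps21, a small-subunit protein found only in eukaryotes, was 1254, 1256 and 1178 in wild type, against 1881, 1497 and 1312 in knockout (log2 fold change 0.33, SE 0.14). Its wild type libraries were close together and knockout 1 was the highest. Rps28, which sits near the mRNA exit channel, was 964, 927 and 925 in wild type, against 1489.6, 1126 and 979 in knockout (log2 fold change 0.33, SE 0.16). Knockout 1 again stood well above the rest, and knockout 3 only just above wild type 1. Rpl37a and Rpl41 of the large subunit, with the copies Rps27rt and Rps3a2, made up the 7.

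Other small-subunit proteins with well-known roles, apart from Rps2, followed the common pattern. Rps6, the substrate of S6 kinases, was 9020.0, 8089 and 6344 in wild type, against 10720.2, 8813 and 6386 in knockout (log2 fold change 0.13, SE 0.22). Rps18, a protein of the subunit's head, was 4798, 3693 and 2727 in wild type, against 6023, 4589 and 3281 in knockout (log2 fold change 0.30, SE 0.27). In both genes the knockout 3 value was below wild type 1 and wild type 2. Rps3, which lines the mRNA entry channel, was 6364 ± 1236 in wild type, against 7127 ± 1605 in knockout (SD, n = 3). Rps19, the protein most often altered in Diamond-Blackfan anaemia, was 2729 ± 735 and 2864 ± 834 (SD, n = 3), and its difference of 0.06 on the log2 scale changed sign with scaling to the library total (−0.01). Rpsa, also known as the laminin receptor precursor, was 10566 ± 2827 and 11083 ± 2614 (SD, n = 3). Rps2, another protein of the entry channel, was the only canonical member with a negative log2 fold change, −0.03 (SE 0.21), and with array weights it was 0.06.

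In the large subunit, which joins amino acids, all 43 genes outside the stalk had a log2 fold change above 0, with a median of 0.18 and a range from 0.04 to 0.39. Rpl36 had the largest, 0.39 (SE 0.15, unadjusted p = 0.0377, adjusted p = 0.993 by limma). It was 1320.2, 1175 and 1044 in wild type, against 1819.6, 1547 and 1294 in knockout, so knockout 3 lay just under wild type 1. Rpl37a, a zinc-binding protein, was 2048, 1915 and 1788 in wild type, against 2619.6, 2298 and 2059 in knockout (log2 fold change 0.27, SE 0.11, unadjusted p = 0.0476). The groups did not overlap, but knockout 3 exceeded wild type 1 by little. Rpl41, the shortest protein of the ribosome, was 4875, 4940.2 and 4403 in wild type, against 6655, 5295 and 5178 in knockout (log2 fold change 0.26, SE 0.12).

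Rpl5 and Rpl11, which carry the 5S RNA and can bind Mdm2 when ribosome assembly is disturbed, differed between genotypes by 0.26 (SE 0.24) and 0.18 (SE 0.21) on the log2 scale. Rpl5 was 7644, 6814 and 5247 in wild type, against 10101, 8152 and 5644 in knockout. Rpl11 was 3326, 3008 and 2418 in wild type, against 4115, 3469 and 2465 in knockout. In both, knockout 1 was the highest library and wild type 3 the lowest. Rpl10, which joins late and completes the subunit, was 9303 ± 482 in wild type, against 10549 ± 2477 in knockout (SD, n = 3). Rpl22, an RNA-binding protein that ribosomes can lack, was 1270.0 ± 237 and 1403 ± 243 (SD, n = 3). Its like gene Rpl22l1 was 757, 779 and 728 in wild type, against 1037, 784 and 770.4 in knockout, with only knockout 1 apart. Rpl4, which lines the exit tunnel, had the highest mean count of the family, 15843 ± 2349.7 in wild type, against 17788 ± 4069 in knockout (SD, n = 3).

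The stalk recruits elongation factors to the ribosome, and its 3 genes had log2 fold changes between 0.16 and 0.22. Rplp0, the stalk base, was 14327, 11172 and 9389.7 in wild type, against 17613, 13591 and 9604 in knockout. Rplp1 was 6835, 5010.0 and 4094 in wild type, against 8047, 5731 and 4788 in knockout. Rplp2 was 3388, 2599 and 2182 in wild type, against 3748, 2919.9 and 2426 in knockout. All 3 genes placed the libraries in 1 order, and knockout 3 was below wild type 2 in each. Without knockout 1 the stalk's median was −0.004.

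The proteins present in all domains of life (33 genes, median 0.18) and those restricted to eukaryotes or shared with archaea (44 genes, median 0.20) had close medians. Coding length went with the size of the difference. The 26 canonical genes with the shortest coding sequences (75 to 405 bases) had a median log2 fold change of 0.25. The next 26 (405 to 576 bases) had 0.21, and the longest 25 (582 to 1257 bases) had 0.16. Across the 77 genes Spearman's rho between coding length and log2 fold change was −0.46, and across 4643 other genes with a mean of at least 1000 it was −0.006. Both are descriptions across genes measured in the same 6 libraries, and genes are not independent replicates. Of the 140 other genes as short as the first set, the median was −0.08.

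**Figure D3:**
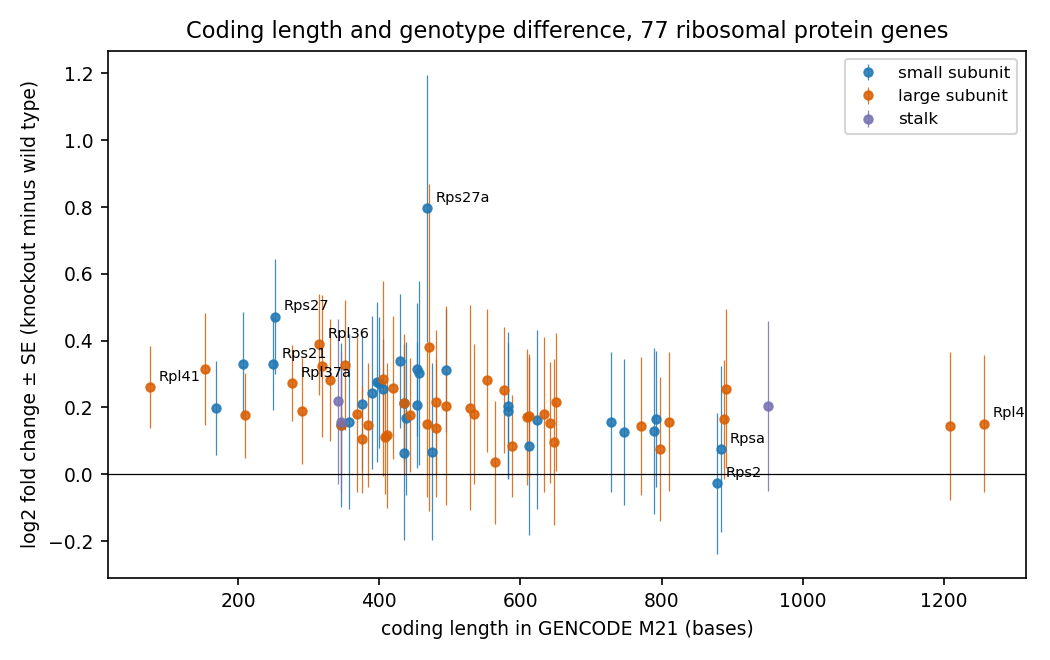
The log2 fold change (knockout minus wild type, with limma's standard error) of 77 canonical ribosomal protein genes is plotted against coding length in bases, in colours for small subunit, large subunit and stalk. The shortest genes reach higher values (median 0.25) than the longest (median 0.16), and the standard errors of most genes are as large as their differences.

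Rps27a, which encodes a fusion of ubiquitin with a small-subunit protein, did not follow the rest. It was 1256, 2862 and 1234 in wild type 1, 2 and 3, against 1826, 3619.6 and 3523 in knockout 1, 2 and 3. Wild type 2, knockout 2 and knockout 3 were high and the other 3 libraries low, so the split crossed the genotypes. It had the largest log2 fold change of the family, 0.80 (SE 0.40, unadjusted p = 0.0873, adjusted p = 0.993 by limma; exact permutation p = 0.2), and the largest spread over the 6 libraries (log2 SD 0.71).

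The pseudogene row Rps27a-ps3 was 296, 156 and 186 in wild type, against 342, 111 and 48.8 in knockout. The 3 libraries in which it was lowest were the 3 in which Rps27a was highest. As a share of the 2 rows together it took 19.1%, 5.17% and 13.1% in wild type, against 15.8%, 2.96% and 1.37% in knockout. The sum of both rows was 1552, 3018 and 1421 in wild type, against 2168, 3730.2 and 3572 in knockout, so the split between libraries remained in the sum. Of the 50-base windows of the Rps27a transcript, 71.9% also occur in another GENCODE M21 gene. These windows are spread over 14 genes, with the largest share in Gm8430 (63.3%), which the sum leaves out. The share with Rps27a-ps3 alone is not given here.

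**Figure D4:**
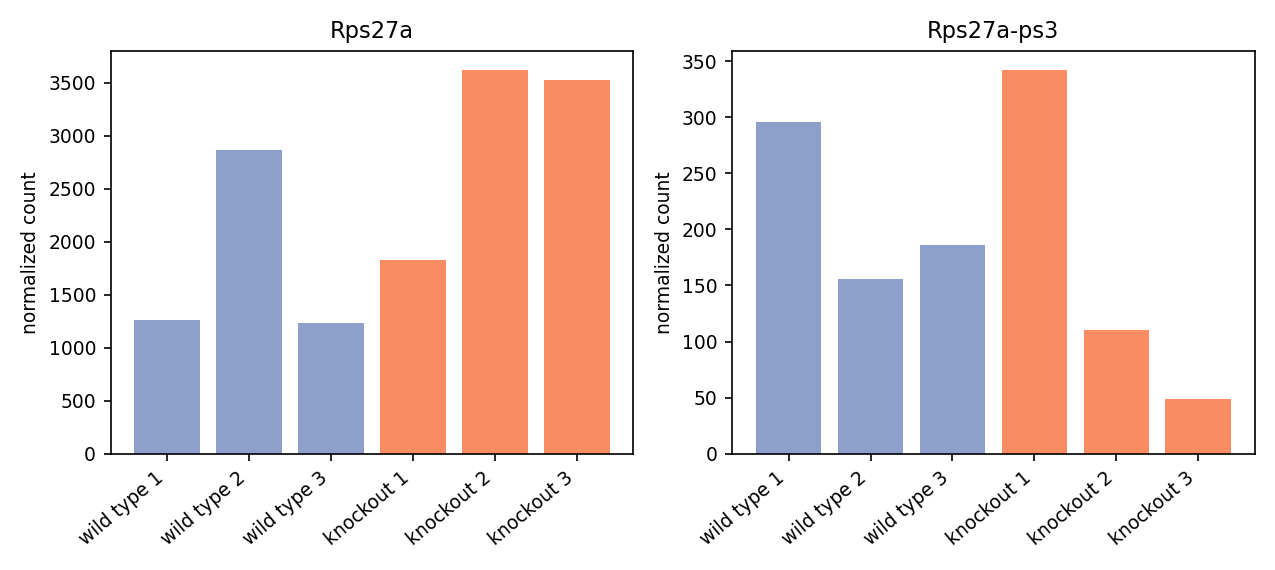
Bars show the normalized count of Rps27a and of the pseudogene row Rps27a-ps3 in each of the 6 libraries, from 0 upwards on separate axes. Rps27a is highest in knockout 2 (3619.6), knockout 3 (3523) and wild type 2 (2862), and Rps27a-ps3 is highest in knockout 1 (342) and wild type 1 (296).

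Per kilobase of transcript, with 1 annotated transcript chosen for each gene, the canonical members had a median of 3802 normalized counts and ran from 20.3 to 12423. A long chosen transcript lowers this value, so it compares genes only roughly. For Rps15a the transcript had 5130 bases, of which 390 are coding, and the value was 417. Rpl10 was at the top. Rpl24, a large-subunit protein that bridges the subunits, was at the bottom with 12.03, 11.6 and 9.67 counts in wild type and 7.36, 16.9 and 24.9 in knockout. Knockout 3 was its highest library and knockout 1 its lowest, unlike the family. Rpl13a, known from interferon-regulated translation, followed at 254 per kilobase, with counts of 305, 237 and 208 in wild type, against 328, 281 and 234 in knockout, in the common order of libraries. In GENCODE M21, 47.0% of the exonic bases of Rpl24 overlap the gene Gm28037, and 35.4% of those of Rpl13a overlap Gm45713. The part of this overlap in the low counts was not tested, and the annotation the authors used is not given in the sources used here.

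Near-identical copies limit how the reads can be assigned. For 43 of the 77 canonical genes, over 50% of the 50-base windows of the transcript also occur in another annotated gene, and the median was 52.9%. The 63 tested pseudogene rows with -ps in the symbol, which the family leaves out, had a median log2 fold change of 0.19. Of them 49 were higher, and the median was close to the 0.18 of the members.

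Rps27 shows the limit most plainly, since 98.6% of its windows occur elsewhere, all of those in Rps27rt. The first 60 of 252 coding bases are shown from GENCODE M21 (GRCm38) for Rps27, for its copy Rps27rt and for Rps27l, a like gene that p53 can induce, and capitals mark bases that differ from Rps27.
Rps27: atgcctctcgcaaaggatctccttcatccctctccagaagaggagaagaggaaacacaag
Rps27rt: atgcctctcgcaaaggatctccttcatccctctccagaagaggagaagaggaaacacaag
Rps27l: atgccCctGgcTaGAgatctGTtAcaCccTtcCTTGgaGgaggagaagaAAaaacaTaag
The coding sequences of Rps27 and Rps27rt were identical over all 252 bases, while Rps27l differed at 60 of them (76.2% identity), 18 of these within the stretch shown. Rps27rt was 116, 98.8 and 67.7 in wild type, against 131, 165 and 126 in knockout (log2 fold change 0.60, SE 0.26), with no overlap. The sum of Rps27 and Rps27rt was 1272, 1216 and 939.9 in wild type, against 1859, 1628 and 1315 in knockout, also with no overlap. Rps27l was 638, 628 and 614 in wild type, against 825, 701 and 559 in knockout, where the groups overlapped (log2 fold change 0.13, SE 0.15).

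The 11 copies and like genes had a median log2 fold change of 0.13, and 7 were higher in knockout. The 4 lower ones were Rps4l, Rpl32l, Rpl7l1 and Rps3a3. Rps4l, annotated as a transcribed processed pseudogene, was set beside Rps4x. It was 1392, 1279 and 1183 in wild type, against 826, 1121 and 1225 in knockout (log2 fold change −0.30, SE 0.16, unadjusted p = 0.108, adjusted p = 0.993 by limma). Knockout 1 was its lowest library, where Rps4x was at its highest. Rps4x was 7577, 6389 and 5252 in wild type, against 9182, 7417 and 4891 in knockout (log2 fold change 0.13, SE 0.25).

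Rpl7l1, a nucleolar relative of Rpl7 with a role in building the large subunit, was the member with complete separation downward. It was 1702, 1786 and 1669.7 in wild type, against 1638, 1528 and 1611 in knockout (log2 fold change −0.11, SE 0.08). The gap between the groups was narrow, and Rpl7l1 had the smallest spread of the family (log2 SD 0.08). Rpl7 itself was 6916, 5828 and 5047 in wild type, against 8205, 6949.8 and 4949 in knockout, with knockout 1 highest and knockout 3 lowest. Rpl36al, the copy of Rpl36a, was also steady at 2140.2 ± 55.4 in wild type, against 2208 ± 198 in knockout, where Rpl36a was 688 ± 124 and 870.0 ± 208 (SD, n = 3). Rps3a2, Rps3a3 and Rpl32l had means under 60 and carry few reads. Rps3a2 was 38.1, 38.7 and 39.6 in wild type, against 56.4, 50.6 and 42.9 in knockout, a complete separation at low counts.

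Fau and Rack1, ribosomal protein genes whose symbols fall outside the rule, followed the family. Fau, a fusion of a ubiquitin-like protein with a small-subunit protein, was 4064, 3216 and 2532 in wild type, against 4328, 3624 and 2879 in knockout (log2 fold change 0.15, SE 0.21). Rack1, a scaffold protein of the small subunit, was 9057, 7281 and 5499.8 in wild type, against 10364, 8365 and 5948 in knockout (log2 fold change 0.17, SE 0.25). Both had knockout 1 highest and wild type 3 lowest.

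Part of the library pattern was also seen in related lists. None of their genes passed limma's adjusted test, so each is given by its count and median. The 11 tested elongation factors had a median log2 fold change of 0.11 with 7 higher, and their median deviation was 0.16, −0.004 and −0.30 in wild type 1, 2 and 3, against 0.19, 0.08 and −0.25 in knockout 1, 2 and 3. Eef1a1, which delivers tRNA to the ribosome, was 85897, 77895 and 63576 in wild type, against 100053, 84691 and 63107 in knockout. Its order of libraries was near that of the ribosomal proteins, with knockout 1 high and both number 3 libraries low. The 77 mitochondrial ribosomal protein genes, which serve a separate ribosome, had a median of −0.04 with 23 higher, and their median deviation stayed between −0.06 and 0.11 in all 6 libraries.

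The genotype medians of genes that build and regulate ribosomes stood near 0. The 54 tested ribosome biogenesis genes had a median of 0.01 with 30 higher, and the 38 initiation factors −0.01 with 16 higher. The 15 tested genes of RNA polymerase I, which makes ribosomal RNA, had −0.05 with 6 higher. The 20 tested genes that regulate TOP mRNAs or belong to the mTOR pathway had −0.03 with 9 higher. The 18 factors that act on nascent chains had −0.03 with 6 higher, and the 16 tested genes of ribosome quality control −0.05 with 6 higher. Over the libraries, the median deviation of the initiation factors was 0.11, 0.05 and −0.10 in wild type 1, 2 and 3, against 0.11, −0.05 and −0.11 in knockout 1, 2 and 3. That of the nascent chain factors was 0.07, 0.01 and −0.02, against 0.03, −0.02 and −0.06. Both lists placed the libraries of each genotype in the order seen in the ribosomal proteins, over a narrower range. The ribosome biogenesis genes kept that order in wild type (0.14, 0.02 and −0.15) but not in knockout (0.06, −0.07 and 0.003). The RNA polymerase I, TOP and mTOR, and quality control lists did not keep it in knockout either. In these lists 1 gene had an unadjusted p under 0.05 by limma, where 1.72% of all tested genes were higher and 1.36% lower. It was Pdcd4, an inhibitor of the helicase Eif4a, at 2344, 2499 and 2621 in wild type, against 3556, 3086 and 2942 in knockout. Its log2 fold change was 0.36 (SE 0.10, adjusted p = 0.993 by limma). Its groups did not overlap, as in 3.85% of all tested genes with knockout above.

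**Figure D5:**
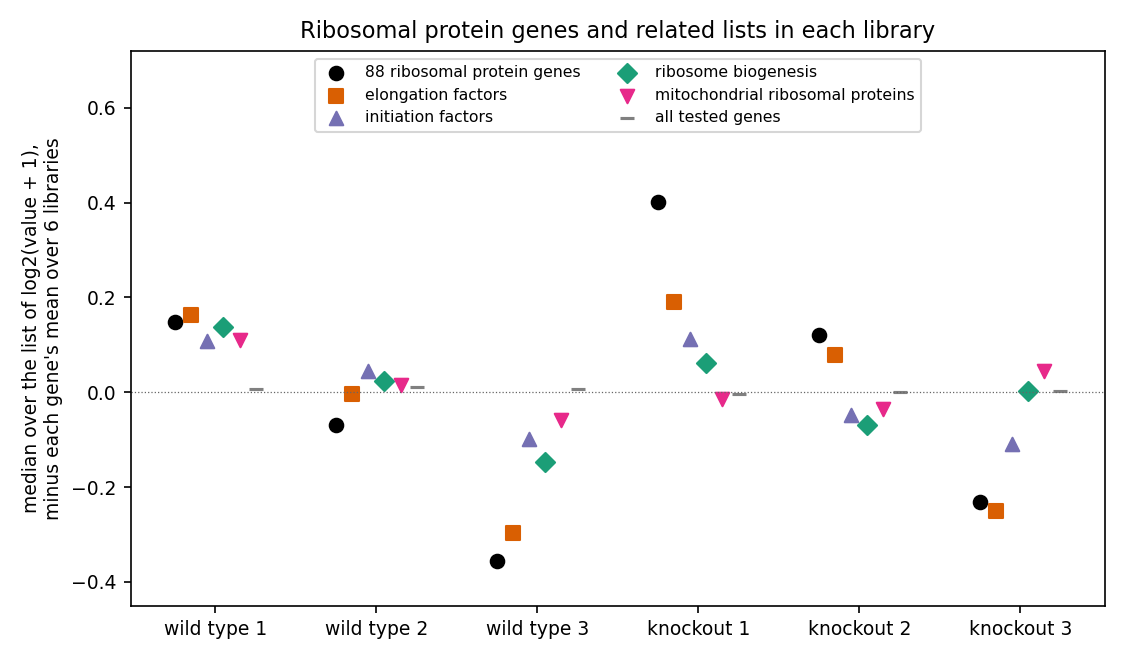
For each library the plot gives the median, over the genes of a list, of log2(value + 1) minus the gene's mean over 6 libraries, for the 88 ribosomal protein genes, 4 related lists and all tested genes. Ribosomal proteins and elongation factors are both high in knockout 1 (0.40 and 0.19) and low in wild type 3 (−0.36 and −0.30), while mitochondrial ribosomal proteins stay between −0.06 and 0.11.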

How the data were processed

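Total RNA from islets was sequenced in 6 libraries. Reads were aligned by the authors with HISAT2, according to the submitters' processing notes. The version, counting tool, build and annotation are not stated in the labels, so genes that overlap, lie antisense or are near-identical may share reads. The deposited values are a signal that the authors scaled by 1 factor per library: 100% of them were whole multiples of a step within 0.01 reads, which gives back the read counts. The table has 0 values at zero.

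The filter kept 16042 genes, those reaching 10 in 3 libraries or more. They were tested as log2(value + 1), a scale that understates the change of low genes, with limma 3.58.1 in R 4.3.3 (mean-variance trend, two-sided, Benjamini-Hochberg at 0.05). Single genes also had a two-sided exact permutation test. EdgeR 4.0.16 and DESeq2 1.42.0 ran on the recovered reads. The code was tested on simulated data. Lengths, overlaps and shared 50-base windows came from GENCODE M21 (GRCm38), and gene starts from RefSeq (GRCm38.p6).

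Groups came from the labels. Replicate libraries differed beyond sampling noise, with a chi-square per degree of freedom of at least 57.0, so none was a duplicate. Members and lists were chosen with earlier results of these data known. Named were the smallest p in each direction, the highest and lowest means and spreads, fixed well-known members, copies with their partners, and ribosomal proteins outside the symbol rule. The alternatives changed the pseudocount, the filter, the scaling, the variance model or the tool, added a replicate block or the acinar level, or left out 1 library. Values of single genes that are not reported here are still part of the counts and medians.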

Additional observations from a re-analysis of the deposited data

How the results depend on the processing

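The count of members called stayed at 0 under each alternative run with limma, edgeR or DESeq2, and the family's median stayed above 0 in all of them, from 0.02 without knockout 1 to 0.36 without knockout 3. DESeq2 called 9 genes in all where limma called 0. The count of members higher at an unadjusted p under 0.05, 3 in the test reported, was 1 with scaling to the library total and 11 with array weights, where 1.11% and 3.14% of all genes were higher at that level (1.72% in the test reported). It ran from 0 to 19 (without knockout 3) when each library was left out in turn, and the count of lower ones from 0 to 1. Over all genes these fits had 1.11% (without knockout 1) to 3.85% (without knockout 3) higher and 0.873% to 3.17% lower, so the calls moved beyond the family as well. Over the same fits, 54 to 86 members had a log2 fold change above 0, the stalk median ran from −0.00372 to 0.39, and the difference in the family's share of counts, 0.0876 percentage points, ran from −0.0456 (without wild type 3) to 0.208 (without wild type 1). The cause of these shifts was not tested.

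The replicate block raised the count of members higher at an unadjusted p under 0.05 to 27, where 3.27% of all genes were higher at that level, and called 0 members (lowest adjusted p = 0.837 by limma). Whether same-numbered libraries are paired could not be settled from these data. Their deviations over all tested genes correlated at 0.43, 0.004 and 0.37, and wild type 2 correlated best with knockout 3 (0.20).

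Signs of single members were followed only for those picked by the naming rule above, so the genes listed here are not all that changed sign. Over all 88 members, the count above 0 went from 83 to 79 with scaling to the library total. It was 75 with the acinar covariate and 54 without knockout 1. Among the named members, log2 fold changes with the other sign were seen with scaling to the library total for Rps19 (−0.00686) and Rpl36al (−0.0304). With array weights they were Rpl36al (−0.0305), Rps2 (0.0647) and Rps3a3 (0.115), and with edgeR Rps3a3 (0.00121). With the acinar covariate they were Rps19 (−0.0648), Rpsa (−0.0401) and Rps4x (−0.0129). Leaving out 1 library at a time gave both signs in the small subunit and its copies for Rps2 (−0.183 to 0.153), Rps4x (−0.0729 to 0.381), Rps6 (−0.0442 to 0.329), Rps19 (−0.153 to 0.262), Rpsa (−0.123 to 0.269), Rps27l (−0.00128 to 0.278) and Rps3a3 (−0.135 to 0.0735). In the large subunit, stalk and copies it did so for Rpl4 (−0.00364 to 0.335), Rpl7 (−0.00413 to 0.361), Rpl10 (−0.00342 to 0.345), Rpl22 (−0.0182 to 0.285), Rpl32l (−0.492 to 0.0988), Rpl36al (−0.00759 to 0.117), Rplp0 (−0.00372 to 0.434) and Rplp2 (−0.00922 to 0.325).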
